A study of Mus musculus with 7 samples.

Results

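Doxycycline (DOX) was used here to switch on OSKM, the factor set Oct4, Sox2, Klf4 and Myc, in mouse embryonic fibroblasts (MEFs) that are wild type for Utx, and the array of these cells with DOX was set against the array of the same line without it. The rule that defined the comparison took 2 of the 7 arrays of the series, V19-OSKM MEF Utx WT + DOX and V19-OSKM MEF Utx WT no DOX, and read 13562 genes on both. Both groups are labelled Utx +/Y and carry the V19-OSKM system, so the uninduced cells hold the factors too. The remaining arrays, which appear below as points of comparison, hold V19-OSKM MEFs labelled Utx -/Y (KO) with and without DOX, MEFs made from Nanog-/- ESCs and transduced with an OSKM lentivirus for 8 days, and V6.5 embryonic stem cells (ESCs) of genotypes Utx -/Y and Utx +/Y. The labels give neither the dose nor the duration of DOX nor the number of embryos behind a culture, and they name 1 growth medium, that of naive ESCs, for every sample including the fibroblasts. Each condition is 1 array. The differences below therefore have no replicate check, no error and no p-value, the number of arrays limits the precision, and a difference between 2 cultures cannot be told apart from an effect of DOX.

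Fibroblasts are mesenchymal cells: they lie singly in a matrix of collagen and proteoglycans that they secrete, and they pull on it with actin and myosin. Epithelial cells are joined side by side by cadherins, desmosomes and tight junctions, stand on a basement membrane and are braced by keratins, and in the epidermis their outer layers crosslink proteins and lipids into a water barrier. When the OSKM factors act on fibroblasts, a mesenchymal-to-epithelial transition is known to come early, well before the pluripotency network of ESCs switches on.

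Values are deposited log2 values, each difference is the value with DOX minus the value without DOX on that scale, and a floor of 7.34, the 40th percentile of all values on the 7 arrays, separates signal from dim probes. A gene was counted as higher or lower when its 2 values were at least 2-fold apart and the greater of them exceeded the floor. Of the 13562 genes measured, 1134 (8.36%) were counted as higher with DOX and 1304 (9.62%) as lower, 7086 of the genes above the floor lay within 2-fold, and 4038 were under the floor on both arrays. The shares 8.36% and 9.62% are the background against which the members of each gene list are counted. At 4-fold, 512 genes were higher and 647 lower, and at 8-fold, 261 were higher and 322 lower. The median gene differed by 0.00 and the medians of the arrays were 7.81 with DOX and 7.81 without.

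**Figure D1:**
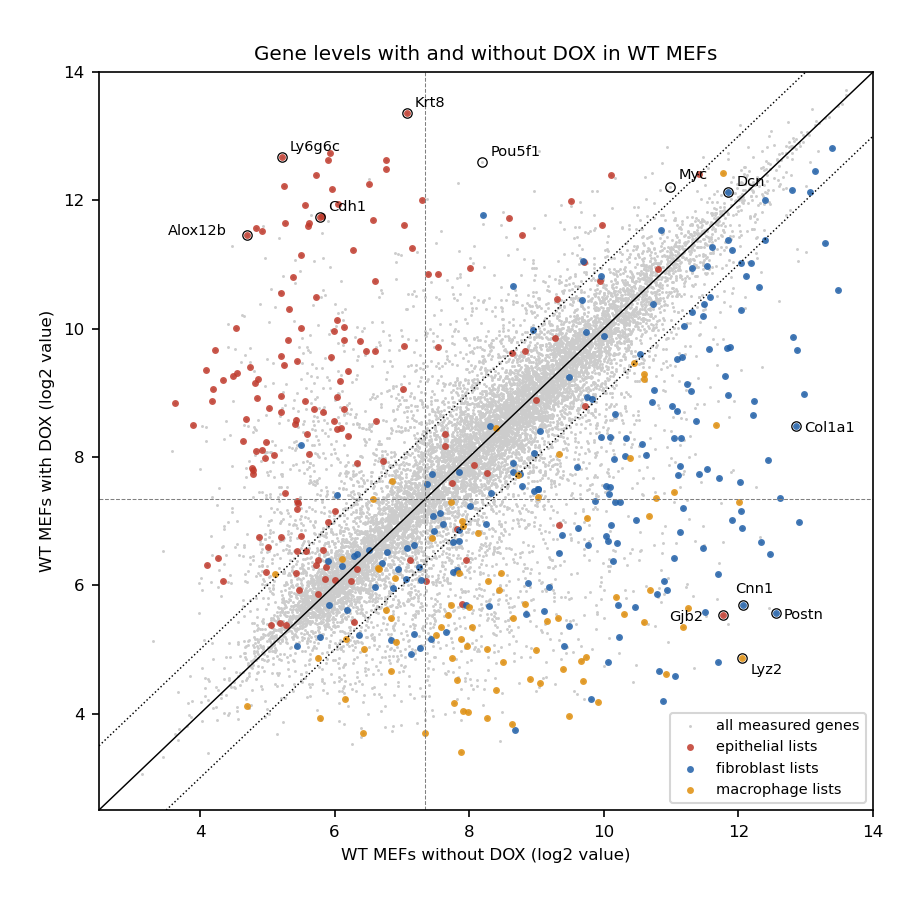
Log2 value of each of 13562 genes in WT MEFs with DOX (vertical axis) against WT MEFs without DOX (horizontal axis), 1 array each. Coloured points are members of the epithelial (red), fibroblast (blue) and macrophage (orange) lists, dotted lines mark 2-fold differences and dashed lines the floor of 7.34. Epithelial genes such as Krt8, at 13.36 with DOX and 7.07 without, lie above the band, and fibroblast and macrophage genes such as Postn and Lyz2 lie below it, with the barrier list member Gjb2 among them.

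The factors themselves were read first. Pou5f1, which encodes Oct4, read 12.59 with DOX and 8.19 without, a 21.1-fold difference. Myc read 12.21 with DOX and 10.99 without, which is 2.33-fold. Klf4 read 8.89 with DOX and 9.0 without, and Sox2 read 5.31 and 5.18, under the floor on both arrays and far below the 11.26 of WT ESCs. Whether the Sox2 and Klf4 probes detect the transcripts of the DOX-driven cassette was not tested. Kdm6a, the gene of the histone demethylase Utx, read 8.93 with DOX and 8.22 without, and Kdm6b, the gene of the related demethylase, read 8.65 and 8.78. Neither demethylase gene reached a 2-fold difference.

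Pou5f1 also checks the other fibroblast libraries. The library labelled KO with DOX had 5.12 and the one labelled KO without DOX had 11.26, the reverse of the WT pair. Both libraries are for that reason named by their labels. Their values enter no difference between the WT arrays, but they do enter the floor and the choice of row for genes with several rows, which were set over all 7 arrays. With the floor and rows taken from the WT MEF arrays alone, the genes counted over the whole array were 1146 higher and 1332 lower with DOX. On the markers of the labelled cell type the array without DOX carried those of fibroblasts: 24 of 24 measured fibroblast surface and mesenchymal identity genes lay above the floor there. That array had 30 of 34 macrophage markers above the floor.

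Genes of the matrix that fibroblasts secrete were lower with DOX, most of them by more than the fold needed for a call. Of 33 measured matrix glycoproteins and proteoglycans, 27 (81.8%) were lower with DOX and 0 were higher, and the list's median difference was -3.97. Postn, a matrix protein of connective tissue under tension, read 5.57 with DOX and 12.56 without, and was at least 37.2-fold lower, where "at least" means that the smaller value was set to the floor. Aspn, a small proteoglycan that binds collagen, read 4.80 with DOX and 11.70 without. Tnmd, a membrane protein of tendon cells, read 4.20 and 10.89, and Ogn, another small proteoglycan, read 4.67 and 10.82. Tenascin C, encoded by Tnc, read 6.98 with DOX and 12.90 without, a difference of -5.92. Each of these 5 genes was above the floor without DOX and below it with DOX. Lumican, the collagen-binding proteoglycan encoded by Lum, was at least 5.56-fold lower, at 4.23 with DOX and 9.82 without. The laminin gene Lama4 differed by -0.11, and the proteoglycan gene Dcn by 0.29, with 12.13 with DOX and 11.85 without. Decorin transcript was thus as high with DOX as without while its relatives Aspn, Ogn and Lum were under the floor with DOX. Other small proteoglycan genes, Prelp, Bgn and Fmod, stayed above the floor with DOX. They read 11.55, 9.87 and 7.67 with DOX, against 10.85, 12.81 and 11.71 without. Dcn, Prelp, Bgn and Fmod are named beyond the rule for named genes, after their values were seen.

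Collagen genes followed the same direction with smaller differences. Of 24 measured collagen genes, 16 (66.7%) were lower with DOX, 1 (4.17%) was higher and 7 were under the floor on both arrays, with a median of -1.63. Col12a1, a collagen that associates with fibrils, read 6.49 with DOX and 12.47 without. The main fibrillar genes Col1a1 and Col1a2 remained above the floor with DOX: Col1a1 read 8.49 with DOX and 12.86 without, a 20.7-fold difference, and Col1a2 read 7.95 and 12.44. Col3a1 read 6.59 with DOX and 11.47 without. The member on the other side was Col17a1, the transmembrane collagen of hemidesmosomes in basal epidermis, at 8.18 with DOX and 5.49 without. Col17a1, too, was picked out after its values were seen.

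Enzymes that process the matrix were lower in 22 of 28 cases (78.6%) and higher in 1, with a median of -2.26. Adamts5, a protease that cuts aggrecan, read 5.20 with DOX and 10.23 without. Serpinf1, which encodes the secreted protein PEDF, read 7.16 and 12.04, and P4ha3, a subunit of the enzyme that hydroxylates collagen prolines, read 6.83 and 11.14. The metalloproteinase genes Mmp19, Mmp23 and Mmp13 differed by -4.35, -3.53 and -3.51. Timp1, an inhibitor of metalloproteinases, was nearest to 0 among the members above the floor, at 12.16 with DOX and 12.80 without. The exception was Loxl4, 1 of the lysyl oxidase relatives that crosslink collagen, with 10.67 with DOX and 8.66 without, whereas its family member Lox read 9.66 with DOX and 12.86 without. The Lox and Loxl4 pair was picked after the values were seen.

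Genes of the contractile apparatus were lower in 15 of 22 cases (68.2%), with 1 higher and a median of -1.70. Calponin 1, the actin-binding protein encoded by Cnn1, read 5.69 with DOX and 12.07 without, at least 26.6-fold lower. Myl9, a regulatory light chain of myosin, read 7.36 with DOX and 12.61 without, and Tagln, a cytoskeletal protein of smooth muscle, read 6.89 and 12.05. Smooth muscle actin, encoded by Acta2, was still above the floor at 8.99 with DOX, against 12.97 without, a 15.8-fold difference. Acta2 lies in a row of 5 neighbouring genes on chromosome 19 that were all lower with DOX, Stambpl1, Acta2, Fas, Ch25h and Lipa, which differed by -1.64, -3.98, -2.84, -5.10 and -1.86. Fhl2, a LIM protein, differed by -0.24.

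On the cell surface, 16 of 24 fibroblast and mesenchymal identity genes (66.7%) were lower, 2 (8.33%) were higher and the median was -2.14. The PDGF receptors, which carry growth signals to mesenchymal cells, were both under the floor with DOX: Pdgfrb read 6.18 with DOX and 11.70 without, and Pdgfra read 5.69 and 10.22. Itga11, the alpha subunit of a collagen receptor of fibroblasts, read 5.59 with DOX and 11.50 without. Cd34 differed by 0.22, with 9.95 with DOX and 9.74 without. Nt5e, which encodes the surface nucleotidase CD73, a marker of mesenchymal stromal cells, was 11.8-fold higher, at 11.77 with DOX and 8.21 without. The list's summed linear level was 23695 with DOX and 53548 without. Among the members with the highest values with DOX were broadly expressed genes such as Vim, at 12.46 with DOX and 13.14 without, and Cd44, at 10.81 and 9.95, whereas Pdgfra, Pdgfrb, Itga11 and Ptn were all under the floor with DOX. In a bulk sample fewer cells of a type and less RNA per cell cannot be told apart, and this holds for each list described here.

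Transcription regulators of mesenchymal cells were lower in 19 of 28 cases (67.9%) and higher in 0, with a median of -1.90. Snai2 and Zeb2, repressors of epithelial genes, read 6.38 and 6.77 with DOX, against 10.13 and 10.03 without, at least 6.92-fold and 6.46-fold lower. Osr1, a regulator of embryonic connective tissue, read 5.67 with DOX and 10.46 without. Sox9, the cartilage regulator, and Twist2, a repressor of dermal mesenchyme, differed by -2.95 and -2.87. Prrx1, a limb mesenchyme regulator, was the member nearest to 0, at 11.38 with DOX and 11.85 without. The genes that record position along the body, the Hox genes, differed little: of 23 measured, 1 was higher (4.35%) and 1 was lower (4.35%), both under the background shares, and 11 were under the floor on both arrays, with a median of -0.38. The higher gene was Hoxa9, at 7.41 with DOX, just over the floor, and 6.04 without, and the lower gene was Hoxb9, at 6.96 with DOX and 8.25 without.

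A second set of genes lower with DOX belongs to macrophages, the phagocytic cells of the immune system. Of 34 macrophage markers, 28 (82.4%) were lower with DOX and 0 were higher, and the median was -3.68. With DOX 3 of the 34 lay above the floor, and without DOX 30 did. The summed linear level of the list was 3116 with DOX and 25407 without. On the MEF arrays labelled KO with and without DOX, 11 and 6 of the 34 lay above the floor, with sums of 8023 and 5043. The Nanog KO array had 18 above it and a sum of 19050. Its median over all rows was 8.55, against 7.68 to 7.84 on the other arrays, which limits the comparison of this count and sum. Of the 7 arrays, that of WT MEFs without DOX thus had the highest level of this list. Whether this belongs to that culture or to the absence of DOX was not tested. Lyz2, the lysozyme of macrophages and neutrophils, read 4.88 with DOX and 12.06 without, the largest difference in this direction over all genes, at -7.18. Adgre1, the gene of a surface antigen that defines mouse macrophages, read 4.18 with DOX and 9.91 without, and Fcer1g, a signalling chain of Fc receptors, read 5.36 and 11.17. The complement genes C1qb, C1qc and C1qa, which neighbour each other on chromosome 4, read 5.65, 4.89 and 5.49 with DOX, against 11.25, 9.73 and 9.32 without. Csf1r, the receptor for the growth factor on which macrophages depend, read 5.44 with DOX and 9.15 without, and the pan-leukocyte gene Ptprc read 5.22 and 7.50. The 3 markers left above the floor with DOX were Cd68, Lgmn and Laptm5, at 9.21, 9.29 and 9.46, against 10.60, 10.60 and 10.46 without DOX. These are genes of lysosomes. Csf1r, Ptprc, Cd68, Lgmn and Laptm5 were chosen after their values were seen. The macrophage list moved together with the fibroblast lists above, and its part in the lower levels of genes that both cell types transcribe was not tested.

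In a list of chemokines, the secreted attractants of leukocytes, and of other inflammatory mediators such as Il6, Tnf and Ptgs2, 21 of 28 genes (75%) were lower and 0 were higher, with a median of -2.93. Ccl3, a chemokine of activated macrophages, read 4.61 with DOX and 10.93 without. Ccl3 belongs to the longest row of neighbouring lower genes found, 6 in all on chromosome 11, Ccl5, Ccl9, Ccl6, Ccl3, Wfdc17 and Wfdc18, which differed by -4.76, -5.18, -2.24, -6.31, -5.73 and -3.63. Cxcl12, a chemokine made by stromal fibroblasts, read 5.44 with DOX and 10.59 without, and Ccl2, an attractant of monocytes, read 7.30 and 12.00. Both stromal and leukocyte attractants were among the lower members. Cxcl16 differed by 0.06. Of 21 interferon-stimulated genes, 9 (42.9%) were lower and 0 were higher, with a median of -1.0, led by Ifit3 at 4.04 with DOX and 7.91 without. Of 33 lysosome and phagosome genes, 9 (27.3%) were lower and 1 was higher (3.03%), and the median was -0.39. Ctss, a cathepsin of antigen-presenting cells, read 5.01 with DOX and 8.27 without, while Scarb2, a lysosomal membrane protein, read 10.28 and 8.49.

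**Figure D2:**
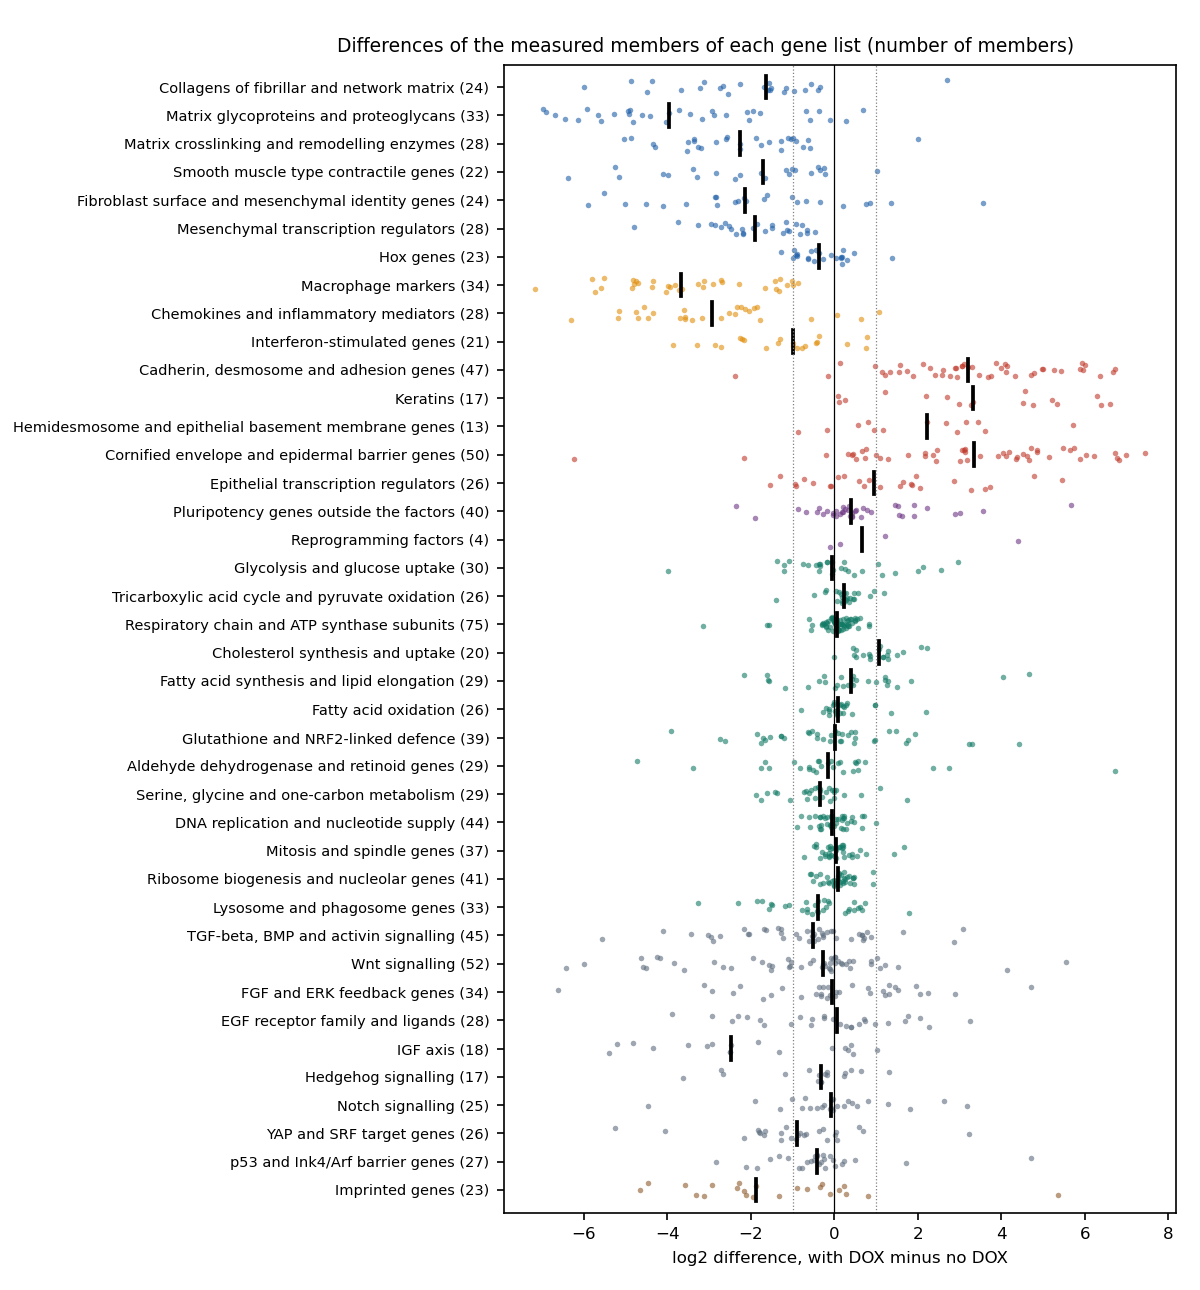
Log2 difference, with DOX minus no DOX in WT MEFs, of every measured member of each gene list, with the number of members in parentheses. Each point is a gene, the black bar is the list's median, the dotted lines mark 2-fold differences, and colours mark themes. Fibroblast and macrophage lists lie left of 0, junction, keratin and barrier lists lie right of it, and replication, mitosis, ribosome and respiratory chain genes gather close to 0.

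Genes of cell junctions were higher with DOX. Of 47 cadherin, desmosome and other adhesion genes, 39 (83%) were higher with DOX and 1 (2.13%) was lower, with a median of 3.20. Cdh1, the gene of E-cadherin, read 11.74 with DOX and 5.79 without, at least 21.1-fold higher, and stood at 10.89 in WT ESCs. Dsp, which encodes desmoplakin, the plaque protein that ties desmosomes to keratins, read 11.92 with DOX and 5.56 without. St14, a membrane protease of epithelia, read 11.60 and 5.60. Podxl, a sialomucin of apical membranes, read 12.40 with DOX and 5.73 without, and Mall, a protein of apical membrane rafts, read 12.63 and 5.90. The desmosomal cadherins Dsc2, Dsg3 and Dsg2, neighbours on chromosome 18, read 9.15, 9.36 and 8.77 with DOX and 4.82, 4.09 and 5.03 without. The tight junction genes Cldn4 and Cldn3, adjacent on chromosome 5, read 11.23 and 9.65 with DOX, against 6.27 and 6.60 without. All of these junction genes were under the floor without DOX. Ctnnd1, the catenin p120, differed by 0.12, at 10.93 with DOX and 10.80 without. The lower member was Cdh3, the gene of P-cadherin, at 6.94 with DOX and 9.33 without. It was picked out after its values were seen.

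Keratins, the intermediate filaments of epithelia, pair a type I with a type II protein. Of 17 measured, 13 (76.5%) were higher with DOX and 0 lower, with a median of 3.32, and 13 lay above the floor with DOX against 2 without. The summed linear level of the list was 27723 with DOX and 1217 without. On the MEF arrays labelled KO with and without DOX, 0 and 3 of the 17 lay above the floor, with sums of 890 and 1909. The Nanog KO array, with its higher median, had 7 above it and a sum of 4962. The pair of simple epithelia was read at 13.36 with DOX and 7.07 without for Krt8, and at 9.72 and 7.03 for Krt18. Krt14, the type I keratin of basal epidermis, read 11.65 with DOX and 5.26 without, and Krt16, a keratin of stressed epidermis, read 11.53 and 4.92. Krt14 and Krt16 stood at 5.14 and 4.70 in WT ESCs, under the floor. Keratins of the simple and of the stratified kind were thus higher on the same array.

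Along the chromosome, the higher keratins lay side by side. In the type I cluster on chromosome 11, read here from Krt10 to Jup in the order of RefSeq's GRCm38.p6 annotation, 6 of 22 measured genes were higher with DOX and 13 were under the floor on both arrays, and the median was 0.16. Krt19, Krt14, Krt16 and Krt17 formed a row of 4 neighbours, with differences of 3.32, 6.38, 6.61 and 5.34. Krt15 beside them was dim, at 5.87 with DOX and 5.75 without, and so was Krt10, the type I keratin of suprabasal epidermis, at 6.11 and 5.86. The keratin-associated genes of hair in this cluster were dim or within 2-fold. In the type II cluster on chromosome 15, from Krt80 to Krt18, 9 of 12 were higher and the median was 3.13. Rows of 3 higher neighbours were formed by Krt90, Krt6b and Krt6a and by Krt1, Krt8 and Krt18. The kallikrein cluster on chromosome 7, which encodes secreted proteases of the skin surface, was read from Klk14 to Klk6. Within these limits it held 9 measured genes, of which 8 were higher, with a median of 3.91. Klk5, a kallikrein gene outside the limits, was under the floor on both arrays, at 6.43 with DOX and 4.27 without. The cluster's row from Klk12 to Klk6, with 7 genes, was the longest row of either direction. Klk10 read 12.63 with DOX and 6.76 without, and Klk13 stayed under the floor at 7.19 and 5.44. The limits of these clusters were set after the values were seen.

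Over the whole genome, neighbouring measured genes that were all higher or all lower, at least 3 in a row, formed 30 rows of higher genes with 100 members and 25 rows of lower genes with 88 members. Several of the former hold epidermal families: Sbsn, Dmkn and Krtdap on chromosome 7 differed by 3.14, 4.36 and 5.47, and Sprr1b, Sprr3 and Sprr1a on chromosome 3, precursors of the cornified envelope, by 3.49, 3.05 and 2.46. Aloxe3, Alox12b and Alox8 on chromosome 11, lipoxygenase genes, differed by 4.18, 6.76 and 3.11. On chromosome 2, Ehf and Elf5, adjacent genes of epithelial ETS factors, stood with Cat and Abtb2 in a row with differences of 5.44, 3.60, 1.30 and 2.04. The neighbours of a row share a chromosomal position, and some share sequence, so they are not independent observations.

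**Figure D3:**
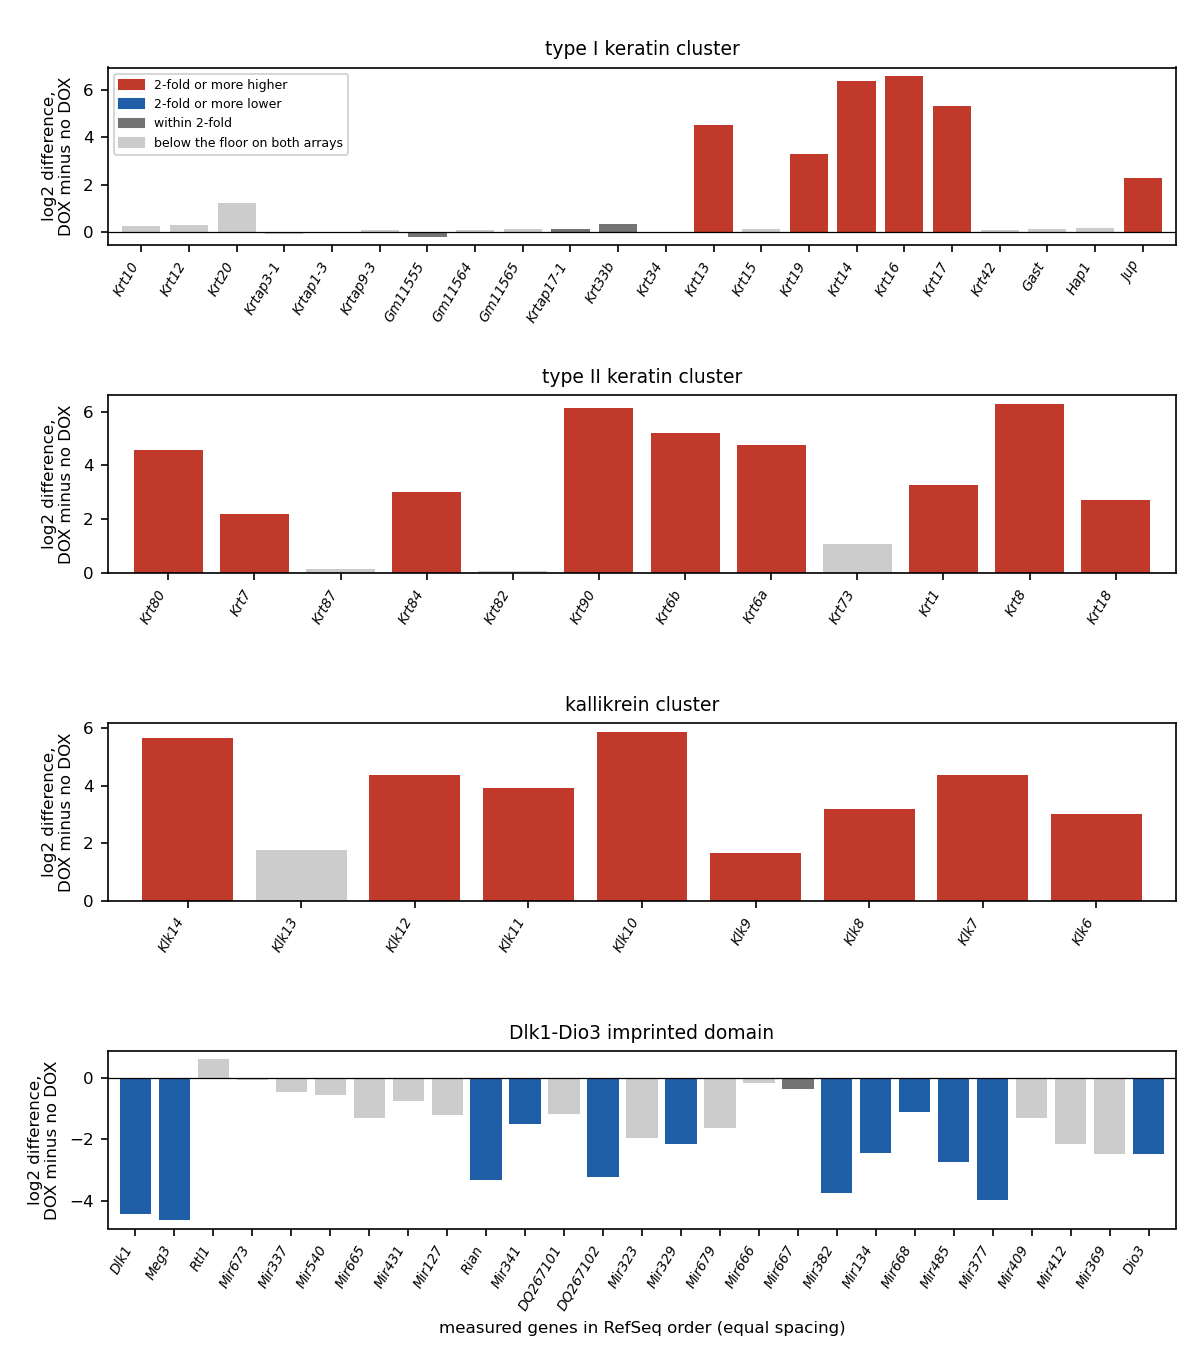
Log2 difference, with DOX minus no DOX in WT MEFs, of the measured genes of 4 chromosomal clusters in RefSeq order, evenly spaced. Red bars are 2-fold or more higher, blue bars 2-fold or more lower, dark grey bars within 2-fold, and light grey bars genes under the floor on both arrays. Higher genes sit in blocks in the keratin and kallikrein clusters, and the Dlk1-Dio3 domain has 12 lower genes and 0 higher ones.

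The barrier of the epidermis was represented on the array by 50 genes of the cornified envelope and its lipids, of which 35 (70%) were higher with DOX and 2 (4%) lower, with a median of 3.34. A further 9 were under the floor on both arrays. Among these were Lor, Ivl and Hrnr, at 6.77, 6.29 and 6.40 with DOX, against 5.50, 5.87 and 5.75 without. Lor, Ivl and Hrnr were picked after their values were seen. Ly6g6c, of the Ly6 family of surface proteins, had the largest difference upwards over all genes, at 12.67 with DOX and 5.22 without, at least 40.2-fold. Alox12b, a lipoxygenase that prepares ceramides for the cornified envelope, read 11.46 with DOX and 4.70 without, and stood at 4.77 in WT ESCs. Tgm1 and Tgm3, transglutaminases that crosslink the envelope, read 12.26 and 11.65 with DOX, against 6.51 and 5.61 without. In WT ESCs Tgm1 stood at 10.30. Slurp1, a secreted Ly6 protein of keratinocytes, read 12.18 with DOX and 5.96 without, and Aqp3, the glycerol channel of basal epidermis, read 11.68 and 5.90. The opposite case was Gjb2, which encodes the gap junction protein connexin 26, at 5.54 with DOX and 11.78 without. Gjb2 stood among the 30 genes with the largest differences downwards, at least 21.6-fold lower, and read 9.72 in the library labelled KO with DOX and 7.55 in the one labelled KO without DOX.

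At the base of the epithelium, 7 of 13 hemidesmosome and basement membrane genes (53.8%) were higher and 0 were lower, with a median of 2.22. Itgb4, the integrin subunit of hemidesmosomes, read 12.48 with DOX and 6.76 without, at least 35.4-fold higher. Its partner Itga6 read 11.46 and 8.79. The genes Lamb3 and Lama3, for chains of the laminin that hemidesmosomes grip, differed by 3.61 and 3.16, and Lama5, a laminin of most basement membranes, by 2.94. Plec, which encodes the linker protein plectin, differed by 0.58.

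Among 26 regulators of epithelial transcription, 9 (34.6%) were higher, 2 (7.69%) lower and 10 under the floor on both arrays, with a median of 0.96. Ehf read 9.66 with DOX and 4.22 without, and at 4.03 in WT ESCs it was dim there. Grhl3, a grainyhead factor needed for the skin barrier, read 10.49 with DOX and 5.72 without, at least 8.90-fold higher. Ovol1, a zinc finger factor that maintains epithelial identity, read 8.94 and 5.20, Elf3, another epithelial ETS factor, 8.24 and 4.98, and Zfp750, a regulator of epidermal differentiation, 8.70 and 5.83.

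The windows around the start sites of these genes are shown because members of several families were higher together. RefSeq's table for GRCm38.p6 gives 300 bases a window, 250 before the start and 50 after it, and holds windows for 889 of the higher and 983 of the lower genes. Those of Krt8, chr15:102004293-102004592 (minus strand), Dsp, chr13:38151044-38151343 (plus strand), and Grhl3, chr4:135573583-135573882 (minus strand), are printed 5′ to 3′ on the gene's strand, and the capitals mark the E-box letters CAGGTG on either strand, CACCTG being the reverse.
Krt8: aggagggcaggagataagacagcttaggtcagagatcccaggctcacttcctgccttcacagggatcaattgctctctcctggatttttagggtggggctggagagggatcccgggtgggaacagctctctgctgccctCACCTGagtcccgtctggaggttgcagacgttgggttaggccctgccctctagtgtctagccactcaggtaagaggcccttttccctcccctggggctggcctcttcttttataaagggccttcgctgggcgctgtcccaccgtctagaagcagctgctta
Dsp: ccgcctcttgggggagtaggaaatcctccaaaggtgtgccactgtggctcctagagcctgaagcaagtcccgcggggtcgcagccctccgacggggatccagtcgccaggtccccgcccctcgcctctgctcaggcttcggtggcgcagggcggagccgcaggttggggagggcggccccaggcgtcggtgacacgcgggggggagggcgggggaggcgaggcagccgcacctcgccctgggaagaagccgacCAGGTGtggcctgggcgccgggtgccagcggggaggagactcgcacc
Grhl3: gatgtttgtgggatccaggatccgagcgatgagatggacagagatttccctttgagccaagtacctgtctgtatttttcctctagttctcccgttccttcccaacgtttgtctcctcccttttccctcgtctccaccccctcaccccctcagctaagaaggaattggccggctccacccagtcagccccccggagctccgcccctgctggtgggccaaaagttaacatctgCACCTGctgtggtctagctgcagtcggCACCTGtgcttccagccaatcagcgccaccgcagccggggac

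The motif was chosen after the differences were seen, since CAGGTG is the sequence that Snail and Zeb repressors are known to recognise. It was present on either strand in 361 of 1221 windows of higher genes (29.6%), in 185 of 1307 windows of lower genes (14.2%) and in 1131 of 7311 windows of genes within 2-fold (15.5%). Each window printed above holds CAGGTG, unlike most windows of higher genes, so those printed are examples and not typical ones. Among windows of genes dim on both arrays it was present in 22.7%, and among all 32851 windows of the table in 20.2%. Windows differ in base composition, with a median of 17 CG dinucleotides in those of higher genes, 16 in those of lower genes and 22 in those of genes within 2-fold. In windows with 0 to 9 CG dinucleotides the shares were 25%, 15.7% and 19.1% for higher genes, lower genes and genes within 2-fold. In windows with 10 to 19 they were 34.2%, 14.2% and 15.9%, and with 20 or more 30.6%, 12.9% and 14.5%. Of these groups, higher genes had the greatest share in each of the 3 classes. Genes dim on both arrays were not divided by CG dinucleotides, so the classes do not compare them with the higher genes. Of the higher genes, 639 were under the floor without DOX. For comparison, GGGCGG, the letters of a GC box, was present in 63.4% of higher, 58.9% of lower and 66.7% of within-2-fold windows, and TATAAA, those of a TATA box, in 8.03%, 10.8% and 6.14%. These shares are descriptions without a test, a gene can have several overlapping windows, and a match to the letters is no evidence of binding.

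Most genes of the pluripotency network stayed dim. Of 40 pluripotency genes outside the factors, 27 were under the floor on both arrays, 9 (22.5%) were higher with DOX and 2 (5%) lower, with a median of 0.39. Nanog read 5.48 with DOX and 5.43 without, against 12.28 in WT ESCs. Apela, which encodes a secreted peptide of ESCs, had the largest difference of the list, 10.08 with DOX and 4.41 without, against 11.06 in WT ESCs. L1td1, an RNA-binding protein gene of ESCs, read 9.0 with DOX and 5.44 without, and its neighbours Patj, Kank4 and Usp1 on chromosome 4 were higher as well. Tet2 and Tet1 encode enzymes that oxidise 5-methylcytosine, and they lay on opposite sides: Tet2 read 10.44 with DOX and 8.23 without, whereas Tet1 read 6.83 and 9.19.

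The 1134 genes higher with DOX were for the most part not held at such levels in ESCs. On the WT ESC array 632 of them (55.7%) lay above the floor, against 61% of all measured genes, and 740 of the 1134 were at least 2-fold higher in WT MEFs with DOX than in WT ESCs. At the other end 39 were at least 2-fold lower than in WT ESCs, and 355 lay within 2-fold. The direction of these shares is partly set by the choice of genes that are high with DOX. Of the 30 genes with the largest differences upwards, 14 lay above the floor in WT ESCs, and 20 are members of the epithelial lists. Others among the 30 were Msln, the gene of mesothelin, at 12.34 with DOX and 6.51 without, Atp2a3, a calcium pump, at 11.49 and 5.82, and Dkkl1 at 11.07 and 5.41. Of the 30 genes with the largest differences downwards, 12 are members of fibroblast lists, 6 of macrophage lists and 1, Gjb2, of an epithelial list. The lists were chosen with earlier results of these data known, so these memberships are partly set by that choice. The share of all measured genes that the lists hold is not given here. Of the 1304 lower genes, 489 (37.5%) were still above the floor with DOX. With DOX 897 of them lay within 2-fold of WT ESCs, 319 were at least 2-fold below and 88 at least 2-fold above. The WT ESC array is a limited reference for fibroblast genes. On it 16 of 24 fibroblast surface and mesenchymal identity genes lay above the floor, against 6 on the KO ESC array.

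**Figure D4:**
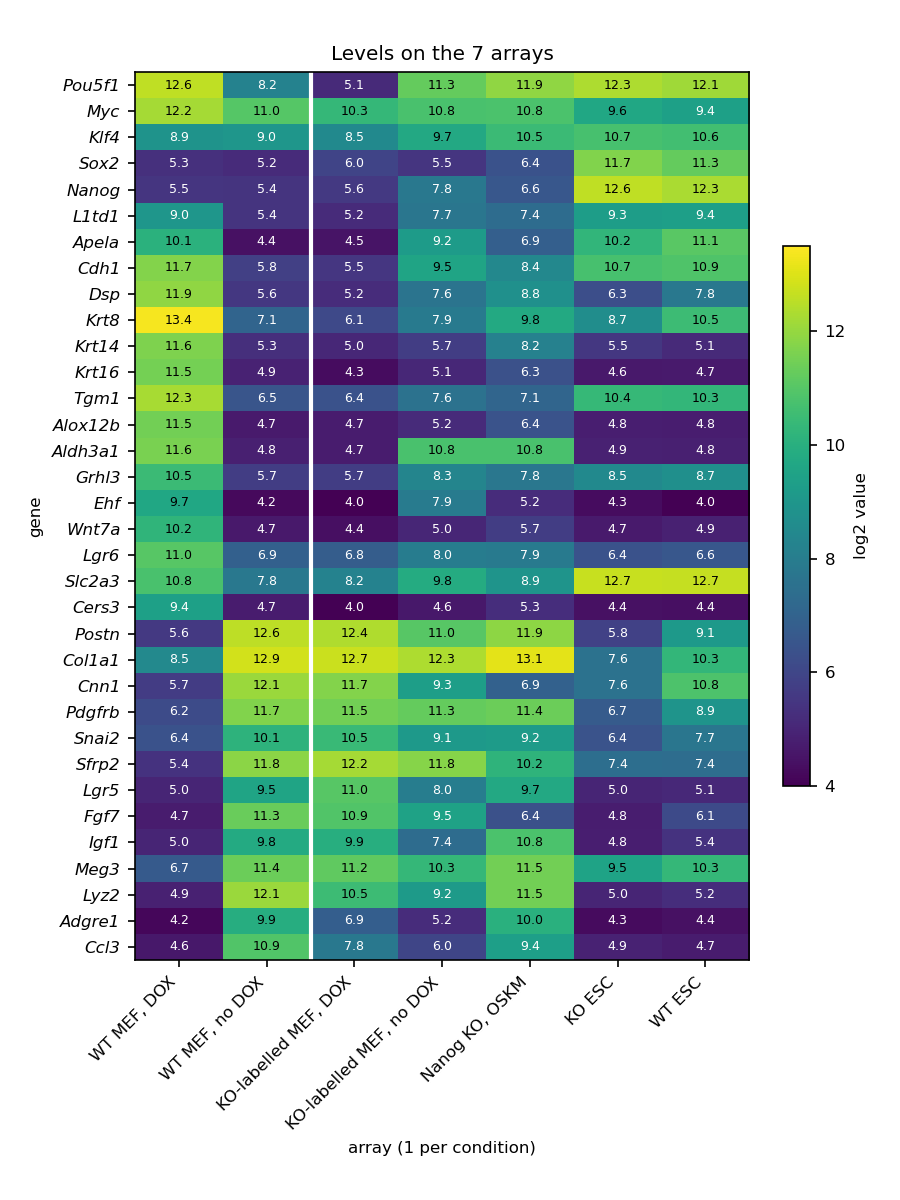
Log2 values of 34 genes (rows) on the 7 arrays (columns), 1 array per condition, with the WT MEFs with and without DOX left of the white line. Colours run from dark (low) to yellow (high) and each cell gives its value. Krt14, Krt16 and Wnt7a are high on the array of WT MEFs with DOX, Cdh1 and Apela also in ESCs, and Postn and Pdgfrb are low with DOX and high on the other fibroblast arrays.

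Housekeeping metabolism differed little while particular enzymes differed strongly. Of 75 subunits of the respiratory chain and ATP synthase, 0 were higher and 3 (4%) were lower, with a median of 0.06, and of 26 genes of the citric acid cycle and pyruvate oxidation 1 was higher (3.85%) and 1 lower (3.85%), with a median of 0.24. The 3 lower subunit genes were Ndufa4l2, a hypoxia-linked relative of a respiratory subunit, at 7.42 with DOX and 10.56 without, Ndufs4 at 10.03 and 11.66, and Cox4i2, the alternative isoform of a cytochrome oxidase subunit, at 7.73 and 9.29. Of 44 genes of DNA replication and nucleotide supply 1 was higher (2.27%) and 0 lower, of 37 mitosis genes 2 were higher (5.41%) and 0 lower, and of 41 genes of ribosome biogenesis 0 were higher and 0 lower. Their medians were -0.06, 0.03 and 0.10. The replication gene was Paics, a purine synthesis enzyme, at 13.01 with DOX and 12.01 without, and the mitosis genes were Cdc25b, a phosphatase that triggers entry into mitosis, at 9.20 and 7.53, and Anln, a scaffold of the cleavage furrow, at 10.76 and 9.33. Genes of proliferation thus lay close to 0 on the whole, with shares of called genes under the background.

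Glycolysis was mixed, with 7 of 30 genes higher (23.3%), 4 lower (13.3%) and a median of -0.06. Slc2a3, the glucose transporter GLUT3, read 10.79 with DOX and 7.82 without, a 7.85-fold difference, and it stood at 12.68 in WT ESCs. Eno3 and Aldoc, tissue isoforms of enolase and aldolase, read 11.14 and 10.09 with DOX, against 8.58 and 7.96 without. Hexokinase 2, encoded by Hk2, was 2.73-fold higher, and Pfkfb4, an isoform of the enzyme that makes a glycolytic activator, 3.98-fold higher. Aldoa, the main aldolase of most tissues, differed by -0.04. Pdk4, the kinase that holds pyruvate out of the mitochondrial cycle, read 5.46 with DOX and 9.44 without, at least 4.29-fold lower. The aldolase isoforms Aldoc and Aldoa thus did not move together.

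Genes of cholesterol synthesis lay on the higher side. Of 20 measured genes, 11 (55%) were higher and 0 were lower, and the median was 1.08. Tm7sf2, a sterol reductase, read 9.43 with DOX and 7.21 without, Pmvk, the phosphomevalonate kinase, 8.32 and 6.23, and Msmo1, a sterol demethylase, 11.18 and 9.53. Srebf2, the transcription factor that drives the pathway, read 11.01 with DOX and 9.72 without, and Insig1, its feedback inhibitor, 10.86 and 9.58. Mvk, the mevalonate kinase, was the member nearest to 0, with a difference of -0.02.

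In fatty acid synthesis 8 of 29 genes were higher (27.6%) and 5 lower (17.2%), with a median of 0.40. Cers3, the ceramide synthase of the epidermal barrier, read 9.41 with DOX and 4.74 without, and Elovl7, a fatty acid elongase, read 9.49 and 5.44. Cers4, a ceramide synthase of other chain lengths, lay on the other side, at 5.71 with DOX and 7.89 without. Agpat2, an enzyme of glycerolipid synthesis, read 11.43 and 9.60. Fatty acid oxidation had 2 of 26 genes higher (7.69%, near the background) and 0 lower, with a median of 0.10. The higher genes were Pparg, a lipid-sensing nuclear receptor, at 9.07 with DOX and 6.87 without, and Acadl, a dehydrogenase of long acyl chains, at 9.57 and 8.21.

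Glutathione and antioxidant genes were split, with 8 of 39 higher (20.5%), 10 lower (25.6%) and a median of 0.01. Gsta4, a glutathione transferase that clears lipid aldehydes, read 12.26 with DOX and 7.84 without, a 21.5-fold difference, and stood at 11.92 in WT ESCs. The microsomal transferases Mgst3 and Mgst2 read 10.61 and 8.23 with DOX, against 7.31 and 5.01 without. Gpx3 and Sod3, secreted antioxidant enzymes, read 7.32 and 5.03 with DOX, against 11.23 and 7.76 without, and both were under the floor with DOX. Of 29 aldehyde dehydrogenase and retinoid genes 3 were higher (10.3%) and 4 lower (13.8%), with a median of -0.16. Aldh3a1, the aldehyde dehydrogenase of cornea and other surface epithelia, read 11.57 with DOX and 4.84 without, against 4.85 in WT ESCs, and Crabp1, a retinoic acid carrier, read 7.53 with DOX and 12.26 without. Of 29 genes of serine, glycine and single-carbon metabolism, 2 were higher (6.9%) and 6 lower (20.7%), with a median of -0.36. The lower ones included Trib3 and Chac1, targets of the stress factor ATF4, at -1.75 and -1.62, and Mthfd2, a mitochondrial folate enzyme, at -1.42, while Cth, which makes cysteine, differed by 1.74.

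All signalling lists except that of FGF and ERK feedback had more lower than higher genes. In the Wnt list 6 of 52 genes were higher (11.5%), 20 lower (38.5%) and 17 under the floor on both arrays, with a median of -0.27. Among ligands, Wnt7a, a ligand of epidermis and other epithelia, read 10.20 with DOX and 4.66 without, whereas Wnt5a, a ligand of mesenchyme, read 5.54 and 9.71. Among receptors of the R-spondins, Lgr6, a marker of epidermal stem cells, read 11.03 with DOX and 6.91 without, and Lgr5, its relative, read 4.97 and 9.55. The R-spondin gene Rspo2, whose product amplifies Wnt signals, read 4.35 with DOX and 8.99 without. The secreted antagonists Sfrp2, Sfrp4 and Dkk3 read 5.40, 5.52 and 5.92 with DOX, against 11.84, 11.52 and 10.43 without. Each of the antagonists was under the floor with DOX. Wnt5a and Lgr6 were picked for these pairs after their values were seen.

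In the TGF-beta, BMP and activin list 3 of 45 genes were higher (6.67%) and 13 lower (28.9%), with a median of -0.52. Tgfbi, a matrix protein named for its induction by TGF-beta, read 6.76 with DOX and 12.32 without, at least 31.6-fold lower. Of the ligands, Inhba, a subunit of activin, read 7.80 with DOX and 11.92 without, and Tgfb3 read 8.18 and 11.13. Fst, the inhibitor of activin, was lower too, at 7.98 with DOX, a difference of -3.02 from the value without. Bmp2 and Bmp6 read 8.52 and 9.67 with DOX, against 5.44 and 6.80 without, whereas Bmp4 read 7.80 and 10.53. Id1, a target gene of BMP signals, read 11.62 with DOX and 9.98 without. Of the receptors, Bmpr2 differed by 0.03 and Tgfbr3 by -3.44. Bmp4, Bmp6 and Id1 were picked after their values were seen.

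Of 34 genes of FGF signalling and ERK feedback, 10 were higher (29.4%) and 8 lower (23.5%), with a median of -0.05. Fgf7, a growth factor that mesenchyme sends to epithelium, read 4.72 with DOX and 11.34 without, and Fgf10, with the same role, read 5.11 with DOX and 7.53 without. Their receptor gene Fgfr2 read 5.47 with DOX and 8.58 without. Fgfbp1, a carrier protein that releases FGFs in epithelia, read 10.12 with DOX and 5.40 without, and Fgf4, a ligand of early embryos and ESCs, read 9.21 and 6.32. In the list of the EGF receptor and other receptor tyrosine kinases 5 of 28 were higher (17.9%) and 8 lower (28.6%), with a median of 0.05. Hgf and Mst1r are a ligand of the scatter factor family and a receptor for its relative. Hgf read 4.05 with DOX and 7.94 without, and Mst1r read 8.02 and 5.76. Erbb3, the neuregulin receptor, read 9.08 with DOX and 5.83 without.

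The IGF axis was the signalling list with the greatest median difference, at -2.49, with 12 of 18 genes lower (66.7%) and 1 higher (5.56%). Its ligand Igf1 read 5.0 with DOX and 9.82 without, and the growth factor Igf2 read 9.41 and 12.35. The binding proteins Igfbp2, Igfbp5 and Igfbp4 read 6.02, 6.51 and 8.87 with DOX, against 11.23, 10.86 and 11.93 without. Pappa, a protease that frees IGF from them, read 5.37 with DOX and 10.76 without. The receptor gene Igf1r was nearest to 0, at 9.91 with DOX and 9.98 without. Ligand, carriers and protease were lower together, and the receptor was not.

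**Figure D5:**
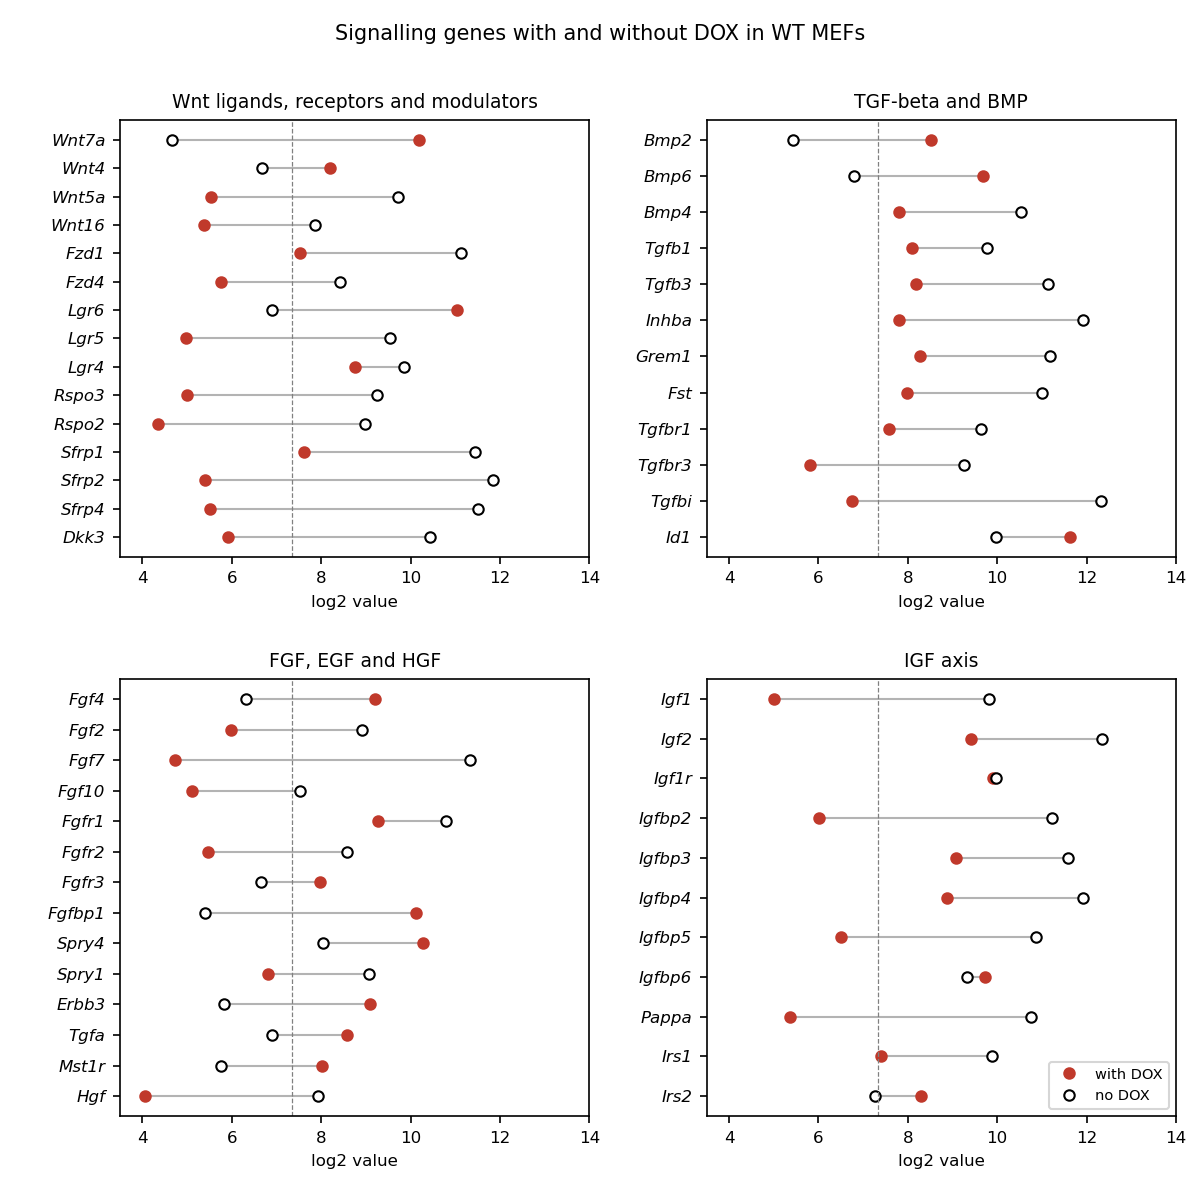
Log2 values of signalling genes in WT MEFs with DOX (filled red points) and without DOX (open points), 1 array each, joined by a line for each gene. The dashed line is the floor of 7.34. The Wnt panel shows Wnt7a and Lgr6 to the right with DOX and Wnt5a, Lgr5 and the secreted antagonists to the left, and the IGF panel shows Igf1r with both points together near 9.9.

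Among Hedgehog genes 1 of 17 was higher (5.88%) and 4 were lower (23.5%), with a median of -0.31. The co-receptors Gas1 and Boc differed by -3.63 and -2.71 and the effector Gli3 by -2.66, while the receptor Ptch1 read 9.16 with DOX and 7.85 without. Of 25 Notch genes 2 were higher (8%) and 4 lower (16%), with a median of -0.08. The receptor Notch4 read 9.51 with DOX and 6.34 without, and the ligand Jag2 read 8.52 and 5.89. YAP and SRF are factors that respond to tension. Of 26 genes in the list of their targets and partners, 11 were lower (42.3%) and 1 was higher (3.85%), with a median of -0.89. Ankrd1 read 5.40 with DOX and 10.66 without, and Ccn2, a matricellular growth factor, 11.20 and 13.01. Yap1 itself differed by 0.02, and Tead4, a DNA-binding partner of YAP, read 10.31 with DOX and 7.08 without. In the p53 and Ink4/Arf list 2 of 27 were higher (7.41%) and 5 lower (18.5%), with a median of -0.41. Perp, a p53 target that is also a desmosome protein, read 12.01 with DOX and 7.30 without, the cell cycle inhibitor Cdkn2b read 8.22 and 9.76, and Cdkn2a was under the floor on both arrays.

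Imprinted genes, of which a cell transcribes the copy from 1 parent, were lower in 13 of 23 cases (56.5%) and higher in 1 (4.35%), with a median of -1.87. The higher gene was Phlda2, a growth restrainer of the placenta, at 11.05 with DOX and 5.69 without, against 10.84 in WT ESCs. The Dlk1-Dio3 domain on chromosome 12 held 27 measured genes, of which 12 were lower, 0 were higher and 14 were under the floor on both arrays, with a median of -1.64. Meg3, its maternally transcribed long RNA, read 6.70 with DOX and 11.35 without. On the other 5 arrays Meg3 lay between 9.51 and 11.49, so that the array of WT MEFs with DOX was alone under the floor. Dlk1, the paternally transcribed gene next to Meg3 among the measured genes, read 7.28 with DOX and 11.74 without. In ESCs Dlk1 was dim as well, at 6.89 and 7.08 in KO and WT. Rian, another maternal RNA, read 4.64 with DOX and 7.97 without. Lower genes were thus found among both the maternally and the paternally transcribed ones.

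The domain also holds many microRNA genes, whose products pair with target messengers through the seed, bases 2 to 8. The array row of a microRNA gene reads the gene or its precursor and does not tell the mature arms apart. Of 98 microRNA genes measured, 28 lay above the floor, 2 were higher and 12 were lower with DOX, with a median over all 98 of 0.00. Over all measured genes 8.36% were higher and 9.62% lower. The lower share of microRNA genes was thus near the background and the higher share under it. Most of the lower microRNA genes lie in this domain. Mir382, Mir134, Mir668, Mir485 and Mir377 formed a row of 5 lower neighbours on chromosome 12. RefSeq's sequences for their mature arms are shown with those of Mir218-1 on chromosome 5, the lower gene next in size to Mir377, with the seed in capitals.
mmu-miR-377-5p: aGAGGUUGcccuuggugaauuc
mmu-miR-377-3p: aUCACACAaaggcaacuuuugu
mmu-miR-382-5p: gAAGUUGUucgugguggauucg
mmu-miR-382-3p: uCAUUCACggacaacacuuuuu
mmu-miR-134-5p: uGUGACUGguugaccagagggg
mmu-miR-134-3p: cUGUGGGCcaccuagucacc
mmu-miR-485-3p: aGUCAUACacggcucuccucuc
mmu-miR-668-5p: gUAAGUGUgccucgggugagcaug
mmu-miR-668-3p: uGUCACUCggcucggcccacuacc
mmu-miR-218-5p: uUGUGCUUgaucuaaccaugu
mmu-miR-218-1-3p: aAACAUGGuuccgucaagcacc

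The 11 sequences shown carry 11 different seeds, and among 22 mature sequences of the 12 genes that the RefSeq table holds, 22 seeds were distinct. The lower genes of the row thus do not share a seed, and what they share is their place. Mir377 read 3.90 with DOX and 7.88 without, Mir382 read 4.25 and 7.99, Mir134 read 6.67 and 9.12, Mir485 read 5.31 and 8.06, and Mir668 read 6.71 and 7.80. Outside the domain, Mir218-1 read 4.55 with DOX and 8.38 without, and Mir145a and Mir143, microRNA genes of smooth muscle and fibroblasts, read 4.45 and 5.65 with DOX, against 8.03 and 8.19 without. The higher ones were Mir135b, at 7.42 with DOX, close to the floor, and 5.19 without, and Mir6516, at 8.43 and 7.09. The microRNA genes outside the row were picked after their values were seen.

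Markers of further cell types moved less evenly. Of 8 adipocyte and cartilage markers 4 were lower (50%) and 1 was higher (12.5%), with a median of -1.88, and Comp, a cartilage matrix protein, read 5.61 with DOX and 8.96 without. Of 8 endothelial markers 3 were higher (37.5%) and 0 lower, with a median of 0.97, and Tek, a receptor of blood vessel cells, read 10.01 with DOX and 6.43 without. Of 8 neural markers 2 were higher (25%) and 0 lower, with a median of 0.86. Nefl, a neurofilament gene, read 9.86 with DOX and 5.52 without, and Stmn2 read 12.36 and 10.17. Of 10 skeletal muscle markers 1 was higher and 1 lower (10% each), with a median of -0.30, of 7 markers of simple and liver epithelia 2 were higher (28.6%) and 0 lower, with a median of 0.61, and of 3 lymphoid and mast cell markers 0 were above the floor on either array. No cell type is named from lists this short.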

How the data were processed

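RNA of 7 mouse cultures was hybridised to 1 Affymetrix array each. The values are on the log2 scale as the authors deposited them, and the submitters' processing notes name RMA and Affymetrix Expression Console, without versions or a genome build. RMA subtracts background, brings arrays to a common distribution and summarises probes. Medians of the 6 Utx arrays ran from 7.68 to 7.84, and that of the Nanog KO array was 8.55.

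Of 21811 rows, 14894 had 1 gene symbol in the platform annotation, 925 had several and 5992 are unnamed here, and 14854 were matched to RefSeq's GRCm38.p6 table. Of 13562 genes, 754 had several rows, and a gene was then read from its row of highest 7-array mean. Among the called genes 105 had several rows, and in 3 of these the rows differed in sign. No test is possible with 1 array per condition, so differences are described, with no p-value. A fold whose lower side is under the floor was computed against the floor. List counts are over all measured members, and list medians use no floor. The counting was tested on simulated data.

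Named genes are the 30 with the largest differences each way, in each list the 6 above the floor with the largest differences and the 1 nearest to 0, the factors, Nanog, Kdm6a and Kdm6b, and members of rows of at least 3 neighbours. Genes outside this rule, the pairs within families and the members drawn in the plot of signalling genes among them, were chosen after their values were seen. The comparison and the 46 lists were chosen with earlier results of these data known. Alternatives covered scaling, the floor, the choice of row and the threshold. The work used Python 3.11.15 with matplotlib 3.10.9, scipy 1.17.1, pandas 2.3.3 and numpy 2.4.6.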

Additional observations from a re-analysis of the deposited data

Results flagged for a closer look

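The 11 results given here concern the libraries labelled KO, where the value with DOX minus that without DOX had the opposite sign to the WT pair and a size of at least 0.5, with a WT size of at least 1. Each genotype has 1 array per condition, so the difference between the pairs was not tested. The directions hold for the labels as given: Pou5f1 read 5.12 in the library labelled KO with DOX and 11.26 in that labelled KO without DOX, and if these labels were exchanged, every sign of the labelled KO pair below would turn and match that of the WT pair. Whether they were exchanged was not tested. Pou5f1 differed by -6.14 between the libraries labelled KO and by 4.40 between the WT MEFs. Fibroblast lists that were lower with DOX in WT MEFs were higher in the labelled KO pair, with medians of 0.53 for matrix glycoproteins and proteoglycans, 0.98 for contractile genes and 0.63 for mesenchymal transcription regulators, against -3.97, -1.70 and -1.90 in WT. Macrophage markers had a median of 0.81 and interferon-stimulated genes of 0.66 in the labelled KO pair, against -3.68 and -1.0 in WT. The IGF axis had 0.53, and adipocyte and cartilage markers 1.02, against -2.49 and -1.88 in WT. Epithelial lists were lower in the labelled KO pair, with medians of -0.54 for cadherin, desmosome and adhesion genes, -0.70 for keratins and -0.54 for hemidesmosome and basement membrane genes, against 3.20, 3.32 and 2.22 in WT.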

How the results depend on the processing

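No paired analysis was possible because each condition is 1 array and the labels give no replicate numbers. No test was run, and what limits these values is the number of arrays and, for dim probes, signal close to background. Of 229 list medians recomputed under another scaling, floor, choice of row or set of arrays, 221 stayed within the main value's 95% interval across members and 8 left it. That interval is for the list's median and is taken from the ranked values of its members, which are not replicates. It is not a range that holds 95% of the members. In lists of 8 or fewer members it is their full range, so staying within it says little about these medians. Of the 229 medians, 3 close to 0 changed sign: glutathione genes at -0.02 with the mean over rows, and EGF receptor genes at -0.03 and aldehyde dehydrogenase genes at 0.02 with the floor at the 60th percentile. The 8 all came from that floor, which leaves out dim members: macrophage markers -4.70, chemokines and inflammatory mediators -4.02, cornified envelope and barrier genes 4.62, epithelial transcription regulators 1.99, pluripotency genes 2.55, Wnt -1.31, Hedgehog -1.19 and skeletal muscle markers -1.54. Of the other lists with a median over 0.5 in size, it moved 5 by over 1.5 times, within their intervals: simple and liver epithelial markers 5.16, neural 3.26, endothelial 2.47, collagens -2.94 and the factors 1.22. That floor gave 834 higher and 868 lower genes. A 4-fold threshold gave 512 higher and 647 lower genes. The other settings gave 1131 to 1337 higher and 1295 to 1623 lower genes, the most without a floor.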

Other observations

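The array also holds 6917 rows that the annotation gives no gene or several genes, and which enter no result above. Of these, 3662 lay above the floor, and in WT MEFs 272 (3.93%) exceeded a 2-fold difference upwards with DOX and 123 (1.78%) downwards.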
